A study of Mus musculus with 4 samples.

Results

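The S100 proteins are small calcium-binding proteins that work as dimers inside cells, where they dock onto target proteins, and several are also released and act on receptors of other cells. Most of their genes lie together in a region of epidermal differentiation genes, and many are read out in tumours because epithelial cells, myeloid cells and fibroblasts each use a different set. In mammary tumours, S100A8 and S100A9 are known from neutrophils and from stressed squamous epithelium, S100A14 from epithelial cells, and S100A4 from fibroblasts and immune cells. A list of 10 S100 genes was read here: S100a1, S100a4, S100a6, S100a8, S100a9, S100a10, S100a11, S100a13, S100a14 and S100b. A gene was read through every probe set that the platform annotation assigns to its symbol alone, which gave 12 probe sets for 9 of the 10 genes, out of 20380 such probe sets for 12393 genes on the array. S100a11 had no such probe set. Its probe set also carries the symbols of other loci, so no value is given for it. Of the 10 genes, 9 lie on mouse chromosome 3 and S100b lies on chromosome 10.

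The arrays compared mammary tumours of female nulliparous FVB mice that were wild type (WT) or carried MMTV-PAX8PPARg, in which the mouse mammary tumour virus promoter, active mainly in mammary epithelium, drives PAX8 fused to the nuclear receptor PPARg. All 4 groups received the progestin MP (Depo-Provera, 15 mg) and then the carcinogen DMBA at 1 mg in each of 4 weekly oral doses. Ages were not used here. Slow-release pellets with placebo or with 2.5 mg of RU486, a blocker of the progesterone and glucocorticoid receptors, were placed after the last DMBA dose and again 60 days later. Each group (WT placebo, WT RU486, PAX8PPARg placebo, PAX8PPARg RU486) is 1 Affymetrix array of RNA pooled from 5 mice. There are therefore no replicates, no comparison of these arrays has a test or an error, and 1 mouse in a pool could set a value. A gene was counted as different when it differed by at least 2-fold. Every difference below is one of log2(signal + 16) after the median of an array was subtracted from its values, and folds are on that scale too. In bulk tumour RNA, fewer cells of a type and less RNA per cell cannot be told apart.

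The trimmed mean signal was 500.15 to 500.20 on all 4 arrays, but relative to WT placebo the 18 spike-in controls were brighter by a factor of 1.59 on WT RU486 and of 2.44 on PAX8PPARg RU486. A signal at or below the highest bacterial control of its array (9.6 on WT placebo, 18.5 on WT RU486, 8.3 on PAX8PPARg placebo and 35.3 on PAX8PPARg RU486) is called within the background range. The tumour label was set against luminal epithelial markers, whose summed signal over 19 genes was 55358 on WT placebo, 49609 on PAX8PPARg placebo and 55499 on PAX8PPARg RU486, but 9757 on WT RU486. The WT RU486 array thus had far less epithelial signal than the other 3, and its macrophage markers (21 genes) summed to 96499 against 28014 to 31544 on the other arrays.

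The S100 genes did not move as 1 block. S100a8, S100a9 and S100a14 were lower with RU486 in WT and higher with RU486 in PAX8PPARg. S100a4 and S100b were highest on the WT RU486 array. S100a6 and S100a10 were highest on the PAX8PPARg RU486 array, though not with quantile normalization, and S100a13 and S100a1 stayed within 2-fold in all 4 comparisons of single arrays (S100a13 reached -1.01 in one of them with a pseudocount of 1).

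**Figure D1:**
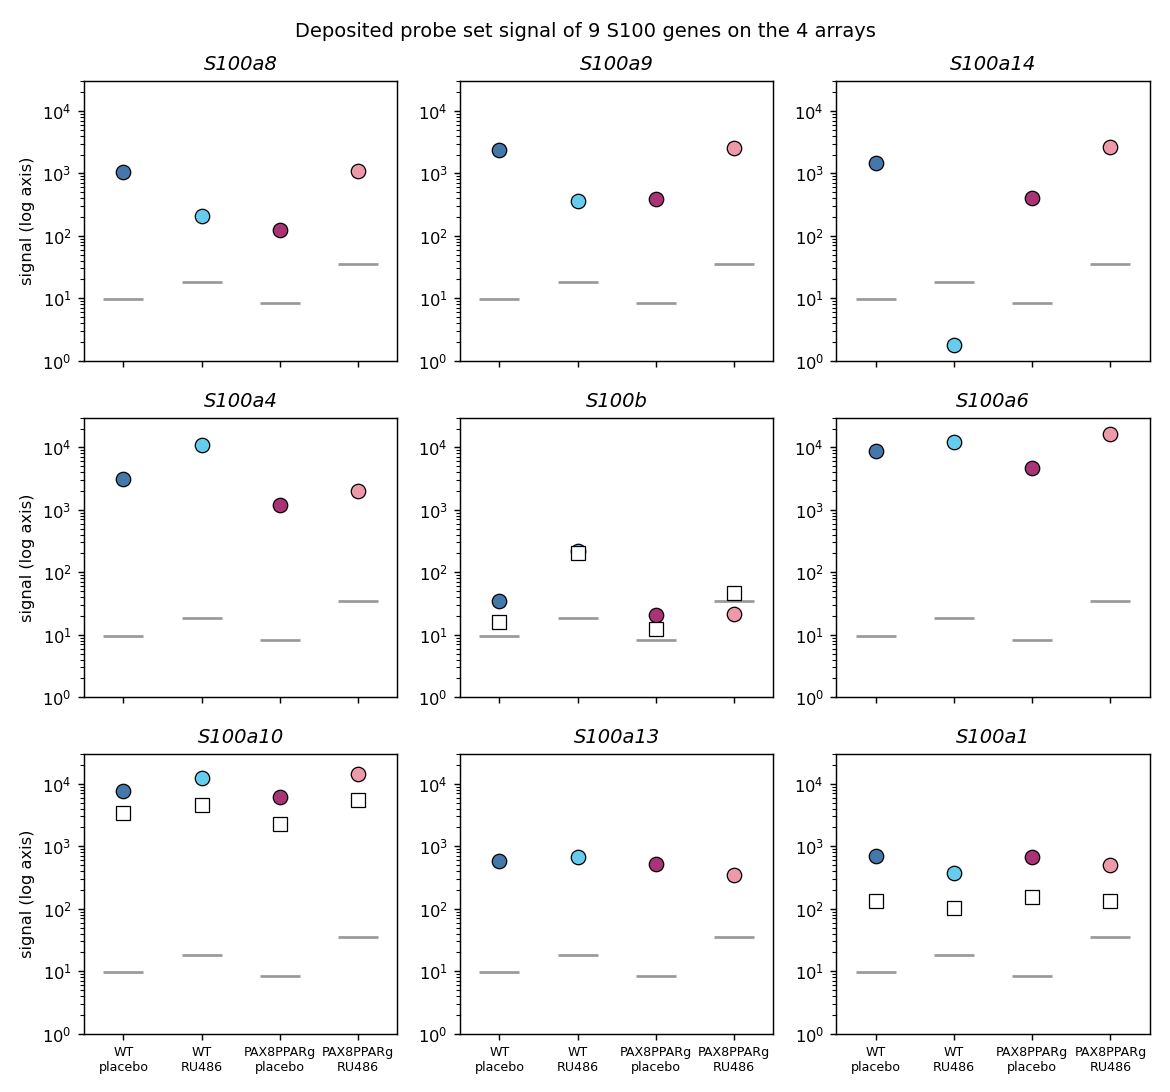
Deposited signal (log axis) of the probe sets of 9 S100 genes on the 4 arrays, 1 array per group. Filled circles are the brighter probe set of a gene, open squares the second one, and grey bars the highest bacterial control on each array. S100a14 reads 1.8 on the WT RU486 array, under the bar of 18.5, and S100b reads 21.3 on the PAX8PPARg RU486 array, under the bar of 35.3.

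S100A8 and S100A9 form calprotectin, a heterodimer that binds calcium and also zinc and manganese, is abundant in neutrophils and monocytes, and is induced in keratinocytes under stress. S100a8 had signals of 1039.8 on WT placebo, 207.6 on WT RU486, 123.3 on PAX8PPARg placebo and 1108.5 on PAX8PPARg RU486. S100a9 had signals of 2365.6, 355.7, 394.1 and 2516.6 on the same arrays in that order. For both genes, WT placebo and PAX8PPARg RU486 were the high pair of arrays and the other two were the low pair. S100a8 was 4.72-fold lower with RU486 in WT (-2.24 log2) and 8.85-fold higher with RU486 in PAX8PPARg (3.15 log2). S100a9 was 6.40-fold lower in WT (-2.68) and 6.77-fold higher in PAX8PPARg (2.76). Between genotypes, S100a8 and S100a9 were 8.65-fold and 6.63-fold lower in PAX8PPARg under placebo (-3.11 and -2.73), and 4.83-fold and 6.55-fold higher in PAX8PPARg under RU486 (2.27 and 2.71). The probe set of S100a8 has the suffix that Affymetrix gives to probe sets that can match more than one transcript.

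S100a8 and S100a9 are neighbours among the measured S100 genes on chromosome 3 and lie on opposite strands. Their promoter windows, from 250 bases before to 30 bases after the annotated start (RefSeq, build GRCm38.p6), are shown because the pair moved together on all 4 arrays. S100a8 is chr3:90668821-90669100 on the plus strand and S100a9 is chr3:90695692-90695971 on the minus strand. Capitals mark matches, on either strand, to the TATA box TATAAA, to the core TTNNGNAA of the C/EBP factors, which act in myeloid and squamous differentiation, and to GAGGAA, a core of ETS factors such as the myeloid regulator PU.1.
S100a8: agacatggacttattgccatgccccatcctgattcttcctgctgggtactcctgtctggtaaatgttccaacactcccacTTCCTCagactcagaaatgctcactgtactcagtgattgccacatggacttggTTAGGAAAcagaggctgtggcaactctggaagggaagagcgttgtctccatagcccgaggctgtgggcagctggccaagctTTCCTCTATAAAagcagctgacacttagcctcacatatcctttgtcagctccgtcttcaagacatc
S100a9: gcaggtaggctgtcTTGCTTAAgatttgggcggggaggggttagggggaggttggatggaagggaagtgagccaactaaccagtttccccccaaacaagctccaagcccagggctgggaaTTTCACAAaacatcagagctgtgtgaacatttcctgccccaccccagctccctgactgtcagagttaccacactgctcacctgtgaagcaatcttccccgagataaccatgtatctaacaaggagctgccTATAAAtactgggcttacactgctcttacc
In the S100a8 window, the 2 ETS letters lie at bases 81 to 86 and 215 to 220, the C/EBP letters at 134 to 141 and the TATA box at 221 to 226, counted from the 5′ end. In the S100a9 window, C/EBP letters lie at 15 to 22 and 121 to 128 and the TATA box letters at 251 to 256. These TATA letters lie past the 250 bases before the annotated start, and those of S100a8 lie before its start. Windows were at hand for 8 of the 10 genes. The C/EBP core was found in 2 of the 8, S100a8 and S100a9, against 39.3% of 32851 windows of all genes. The TATA box letters, at any place in the window, were found in S100a4, S100a8 and S100a9, against 13.1% of all windows. The ETS core was found in S100a4, S100a8 and S100a11, against 26% of all windows. The AP-1 letters TGANTCA were found in S100a11 alone (7.46% of all windows). A palindromic steroid receptor element was in none of the 8 windows (0.435% of all windows), nor were the STAT letters TTCNNNGAA (7.83%) or an NF-kB element (4.22%). These matches describe letters and not binding, and a missing match says only that the letters are not in this window.

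S100A14 is an S100 protein of epithelial cells. S100a14 had signals of 1453.3 on WT placebo, 1.8 on WT RU486, 402.2 on PAX8PPARg placebo and 2605.4 on PAX8PPARg RU486. The WT RU486 signal was within the background range, so its differences are bounds: with that signal set to the highest bacterial control, S100a14 was at least 42.6-fold lower with RU486 in WT, and at least 73.0-fold higher in PAX8PPARg than in WT under RU486. In PAX8PPARg it was 6.88-fold higher with RU486 than with placebo (2.78), and under placebo it was 4.01-fold lower in PAX8PPARg than in WT (-2.00). The order of the 4 arrays was thus the same as for S100a9 at its top, with PAX8PPARg RU486 first and WT placebo second.

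Markers of several cell types moved with these 3 genes. In WT, 21 of 26 squamous and keratinized markers were at least 2-fold lower with RU486 and 0 higher (median -2.30), 17 of 19 luminal epithelial markers were lower and 0 higher (median -3.21), and 8 of 23 neutrophil and myeloid granule markers were lower and 4 higher (median -0.68). The median over all genes in that comparison was 0.01. In PAX8PPARg, 24 of 26 squamous markers were at least 2-fold higher with RU486 and 0 lower (median 3.38), 15 of 23 neutrophil markers were higher and 0 lower (median 1.55), and 2 of 19 luminal markers were higher and 1 lower (median 0.34). The median over all genes was 0.13. Of 17 basal and myoepithelial markers, 13 were lower and 1 higher in WT (median -1.94), and 8 were higher and 4 lower in PAX8PPARg (median 0.07). The summed signal of the squamous markers was 13967 on WT placebo, 750.6 on WT RU486, 2006 on PAX8PPARg placebo and 21563 on PAX8PPARg RU486, with 2, 17, 10 and 2 of the 26 within the background range. That of the neutrophil markers was 13812, 5396, 3442 and 9772, with 3, 8, 8 and 6 of the 23 within the background range and none at 0. The squamous sum was high on the same pair of arrays as S100a8 and S100a9. The neutrophil sum was too, but it rests on Ltf and Lcn2, which mammary epithelium also makes. Without them it was 4412.5 on WT placebo, 4636 on WT RU486, 677.4 on PAX8PPARg placebo and 3756 on PAX8PPARg RU486 (21 genes, a sum added after the values were seen). In that sum PAX8PPARg placebo alone stood low, but Mmp9 (1518.8) and Clec4d (1183.3) made up much of it on WT RU486. The median level of the 21 genes, each less its own mean, was 0.38, -0.19, -1.31 and 0.40 in the same order. By that median, WT placebo and PAX8PPARg RU486 were the high pair. Of those 21 genes, 4 were higher and 6 lower with RU486 in WT (median -0.32), and 14 were higher and 0 lower in PAX8PPARg (median 1.55). Among neutrophil markers, the primary granule protease gene Elane read 2.7 to 6.3, within the background range on each of the 4 arrays, and the antimicrobial peptide gene Camp was so on WT placebo, WT RU486 and PAX8PPARg placebo (6.5, 8.0 and 2.4) and read 57.8 on PAX8PPARg RU486. Others were above that range on all 4 arrays, among them Cxcr2 (84.6, 27.3, 68.7 and 65.7) and Il1r2 (311.9, 44.2, 34.4 and 155.0, in the same order of arrays). These genes were picked after their values were seen. The neutrophil markers with the largest differences were Stfa3, Ltf (-4.02) and Lcn2 (-3.21) in WT, and Stfa3 (3.51), Mmp9 (3.27) and Prtn3 in PAX8PPARg. Stfa3 was within the background range on WT RU486 and Prtn3 on PAX8PPARg placebo, so these differences have no exact size. With its signal raised to the highest bacterial control, Stfa3 differed by -3.69 in WT, so the order of Stfa3 and Ltf is not settled. What part either cell type had in the S100 signals was not tested.

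**Figure D2:**
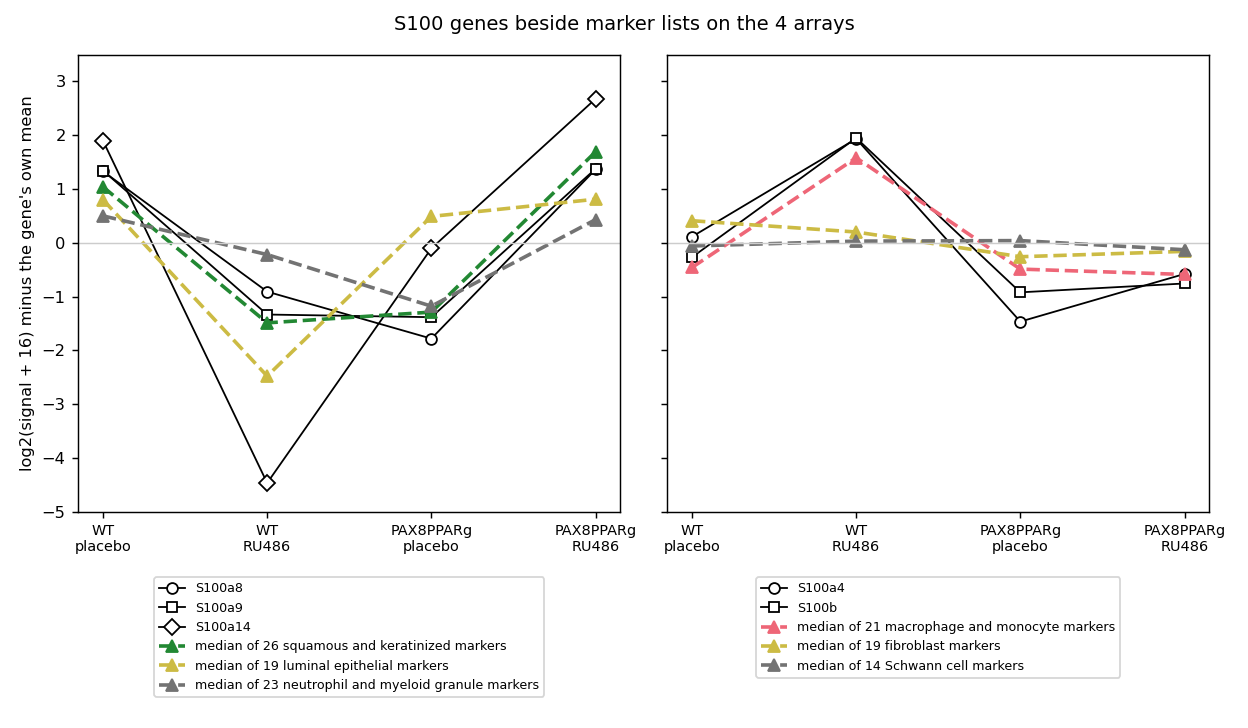
Level of S100 genes (black) and median level of marker lists (dashed) on the 4 arrays, as log2(signal + 16) minus each gene's own mean over the arrays, 1 array per group. On the left, S100a8 and S100a9 and the medians of the squamous and the neutrophil markers are all higher on WT placebo and PAX8PPARg RU486 than on the other arrays. The squamous median is lowest on WT RU486 (-1.49) and the neutrophil median on PAX8PPARg placebo (-1.18). On the right, S100a4 and S100b peak with the macrophage markers on the WT RU486 array.

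The receptors of extracellular S100A8 and S100A9 did not share one pattern. Ager, the gene of RAGE, a receptor of several S100 proteins, read 18.9 on WT placebo, 3.3 on WT RU486, 3.0 on PAX8PPARg placebo and 31.3 on PAX8PPARg RU486, and was within the background range on all but the WT placebo array. Tlr4, the toll-like receptor that binds S100A8, was 472.5, 694.7, 421.9 and 308.4 on the same arrays and stayed within 2-fold for RU486 in both genotypes (0.54 and -0.30). Between genotypes, Tlr4 differed by -0.35 under placebo and was more than 2-fold lower in PAX8PPARg under RU486 (-1.19). Bsg, the gene of basigin, a receptor of S100A9, stayed within 2-fold in all 4 comparisons (-0.32 to 0.63). Of 13 measured genes of S100 receptors and their signalling, 4 were at least 2-fold higher and 1 lower with RU486 in WT, and 1 was higher and 2 lower in PAX8PPARg. The largest differences were those of Cd33, a lectin that binds S100A9, in WT (2.69) and of the scavenger receptor gene Cd36 in PAX8PPARg (-3.74). Cd36 is also an adipocyte gene, and 17 of 17 adipocyte markers were at least 2-fold lower in that comparison.

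S100A4, also known as metastasin and as fibroblast-specific protein, binds non-muscle myosin and is made by fibroblasts, macrophages and T cells. S100a4 had signals of 3108.9 on WT placebo, 11024.7 on WT RU486, 1177.3 on PAX8PPARg placebo and 1995.2 on PAX8PPARg RU486. Both WT arrays were above both PAX8PPARg arrays, and within each genotype the RU486 array was the higher one. S100a4 was 3.54-fold higher with RU486 in WT (1.82) and 1.85-fold higher, under the 2-fold line, in PAX8PPARg (0.89). It was 2.99-fold lower in PAX8PPARg than in WT under placebo (-1.58) and 5.71-fold lower under RU486 (-2.51). Myh9, the gene of its binding partner non-muscle myosin IIA, stayed within 2-fold in all 4 comparisons (-0.27 to 0.55).

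S100B is known from Schwann cells, glia, melanocytes and adipocytes. Its brighter probe set read 34.3 on WT placebo, 218.0 on WT RU486, 20.5 on PAX8PPARg placebo and 21.3 on PAX8PPARg RU486, the last within the background range. The second S100b probe set read 16.3, 200.9, 12.6 and 46.6, all above that range. Both probe sets were highest on WT RU486, with a difference from placebo of 2.22 (4.65-fold) and 2.75 (6.72-fold). In PAX8PPARg they disagreed on RU486, at 0.16 for the brighter probe set, which has no exact size, and 1.26 (2.40-fold higher) for the other. Under RU486, S100b was at least 4.75-fold lower in PAX8PPARg than in WT with the brighter probe set, and 3.61-fold lower with the other (-1.85).

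Macrophage markers were highest on the array where S100a4 and S100b were highest. In WT, 19 of 21 were at least 2-fold higher with RU486 and 0 lower (median 1.79), with the largest differences for Cx3cr1 (3.51), Siglec1 (3.51) and Fcgr1 (2.74). In PAX8PPARg, 1 was higher and 2 lower (median -0.04). Counts of fibroblast markers did not have that pattern, with 1 of 19 higher and 3 lower with RU486 in WT (median -0.16). In PAX8PPARg, 1 was higher and 3 lower (median 0.09). Their summed signal was highest on WT RU486 (96052.5), with 76029 on WT placebo, 57443 on PAX8PPARg placebo and 79021.5 on PAX8PPARg RU486. Their median level, each gene less its own mean, was higher on the WT arrays (0.41 on placebo, 0.20 on RU486) than on the PAX8PPARg arrays (-0.26 and -0.16), as S100a4 was. Of 14 Schwann cell markers, 1 was higher and 3 lower in WT (median 0.17). The largest Schwann differences in WT were those of Mal (-4.69) and Sox10 (-3.13), which epithelial cells also use, and of the myelin gene Mag (1.20), which was within the background range on the other 3 arrays. Mag was the 1 marker counted as higher. With such signals raised to the highest bacterial control it differed by 0.82, within 2-fold, and Ngfr (-1.20) differed by more. The list was split on the array with the highest S100b: Pmp22, Ncmap, L1cam and Mag were highest there, and Sox10, Mbp, Mal, Ngfr and Scn7a lowest. Adipocyte markers were highest on PAX8PPARg placebo, where the S100b probe sets read 20.5 and 12.6. Of 13 T and B cell markers, 3 were higher and 0 lower with RU486 in WT (median 0.66), and 13 were lower in PAX8PPARg (median -3.24), where S100a4 differed by 0.89. Of 12 dendritic cell markers, 1 was higher and 0 lower in WT, and 9 were lower in PAX8PPARg. Between genotypes under placebo, 2 of 21 macrophage markers were higher and 3 lower in PAX8PPARg (median -0.04), where S100a4 differed by -1.58. What part macrophages or fibroblasts had in the S100a4 and S100b signals was not tested.

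S100A6 (calcyclin) and S100A10 (p11) are carried by many cell types, and S100A10, which has lost calcium binding, forms a complex with annexin A2 at the plasma membrane. S100a6 had signals of 8856.2 on WT placebo, 12122.8 on WT RU486, 4733.0 on PAX8PPARg placebo and 16634.4 on PAX8PPARg RU486. It was 3.85-fold higher with RU486 in PAX8PPARg (1.94), within 2-fold in WT (0.45), and 2.13-fold lower in PAX8PPARg than in WT under placebo (-1.09). The brighter S100a10 probe set, whose suffix marks probes that may also match other sequences, read 7666.8, 12275.7, 6227.8 and 14414.9 in the same order, and the second one 3374.9, 4566.4, 2233.3 and 5501.3. S100a10 was 2.54-fold higher with RU486 in PAX8PPARg (1.34, and 1.43 with the second probe set) and within 2-fold in WT (0.68 and 0.44). Both genes were lowest on PAX8PPARg placebo and highest on PAX8PPARg RU486, except that with quantile normalization PAX8PPARg RU486 lay below WT RU486 (-0.13 for S100a6 and -0.29 for S100a10).

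Very bright genes as a class were higher on the PAX8PPARg RU486 array. Of 56 other genes with a mean signal at least that of S100a10, 39 were at least 2-fold higher with RU486 in PAX8PPARg (69.6%, median 1.13), and 2 had a difference as large as that of S100a10. Of 48 other genes at least as bright as S100a6, 34 were at least 2-fold higher (70.8%, median 1.12), and none had a difference as large as that of S100a6. In WT the medians of those 56 and 48 genes were 0.20 and 0.24. With quantile normalization, which levels the arrays at each rank, the PAX8PPARg difference became 1.09 for S100a6 and 0.48 for S100a10, so that S100a10 was no longer counted. Of 329 other genes at least as bright as S100a4, the median was 0.11 in WT and 0.66 in PAX8PPARg, and none had a WT difference as large as that of S100a4. These sets of bright genes were drawn up after the values were seen.

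**Figure D3:**
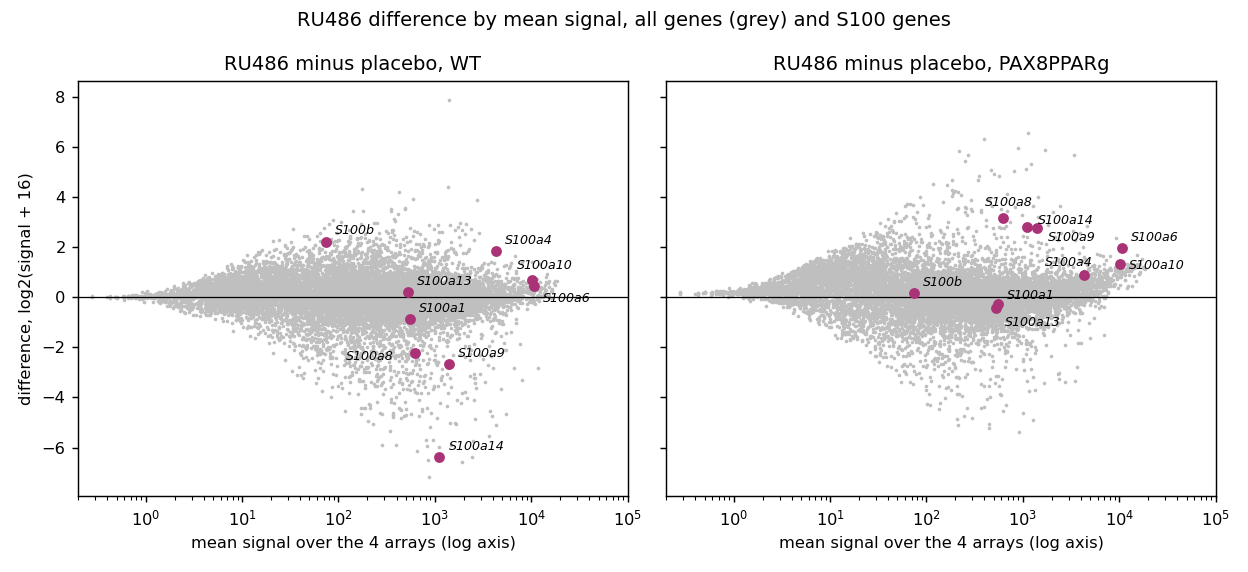
RU486 minus placebo in WT (left) and PAX8PPARg (right), as log2(signal + 16) with arrays centred on the median, against the mean signal over the 4 arrays (log axis), for all 12393 genes (grey) and 9 S100 genes (purple). In PAX8PPARg the brightest genes lie above 0 as a class, with S100a6 (1.94) and S100a10 (1.34) among them, while S100a8, S100a9 and S100a14 lie in a range of signal where genes spread to both sides of 0.

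The partners of S100a6 and S100a10 were read on the same arrays. Anxa2, the gene of annexin A2, had signals of 7013.4 on WT placebo, 9052.0 on WT RU486, 3627.4 on PAX8PPARg placebo and 9324.6 on PAX8PPARg RU486, and was higher with RU486 by 0.37 in WT and 1.49 in PAX8PPARg. It was lowest on the PAX8PPARg placebo array, as were both S100 genes, and the RU486 arrays of the genotypes differed by -0.01. Ahnak, the gene of a scaffold protein that binds the annexin A2 and S100A10 complex, differed by 0.66 and 0.81, and Cacybp, the gene of the calcyclin-binding protein, by 0.26 and 0.46. Anxa2 and Ahnak are among the 329 genes at least as bright as S100a4. In PAX8PPARg the median of those genes was 0.66, and 80 (24.3%) were at least 2-fold higher with RU486. Whether Anxa2 and Ahnak followed S100a10 beyond that shift was not tested. Plaur, the gene of the urokinase receptor, and Plat, the gene of the tissue plasminogen activator that this complex can bind, differed by 0.40 and 0.00 in WT and by 1.51 and 0.99 in PAX8PPARg. Of 24 measured genes of intracellular S100 partners, 1 was at least 2-fold higher and 1 lower with RU486 in WT (median 0.19), and 4 were higher and 0 lower in PAX8PPARg (median 0.48).

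S100A13 takes part in the release of FGF1, which lacks a signal peptide, and S100A1 acts on calcium handling in heart and skeletal muscle. S100a13 had signals of 571.6 on WT placebo, 661.4 on WT RU486, 519.4 on PAX8PPARg placebo and 343.6 on PAX8PPARg RU486. Its largest difference was that between genotypes under RU486 (-0.97), and its RU486 differences were 0.21 in WT and -0.44 in PAX8PPARg. Fgf1 read 54.2, 19.8, 228.1 and 390.5 in the same order, so its high arrays were the PAX8PPARg pair. The brighter S100a1 probe set, whose suffix is that of S100a8, read 698.2, 370.3, 664.8 and 496.0, and the second one 133.1, 101.0, 152.3 and 131.1. Both were lowest on WT RU486 (-0.89 and -0.35 against placebo) and their highest arrays differed. Of 22 skeletal muscle markers, 18 were at least 2-fold lower in PAX8PPARg than in WT under RU486 (median -1.66), where S100a1 differed by 0.35.

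Counted over the 9 measured genes, 3 were at least 2-fold lower with RU486 in WT (S100a8, S100a9 and S100a14), where 8.88% of all genes were, and 2 were at least 2-fold higher (S100a4 and S100b), where 7.46% of all genes were. In PAX8PPARg, 5 were higher (S100a6, S100a8, S100a9, S100a10 and S100a14), where 10.6% of all genes were, and 0 were lower, where 7.08% were. S100a6 and S100a10 are very bright, and 70.8% and 69.6% of the other genes as bright as each were higher too. With quantile normalization the count was 4, without S100a10, where 6.97% of all genes were. The median of the 9 genes was 0.21 in WT and 1.34 in PAX8PPARg. Without centring of the arrays, the split of all genes with RU486 in PAX8PPARg was 1028 higher and 1080 lower in place of 1316 and 877, and with quantile normalization it was 864 and 1020.

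**Figure D4:**
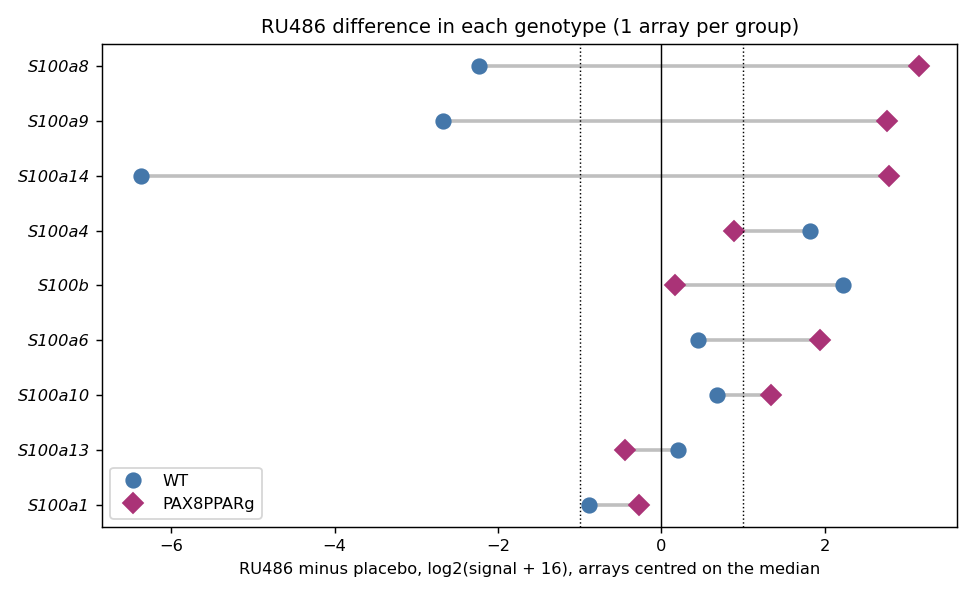
RU486 minus placebo for 9 S100 genes in WT (blue circles) and PAX8PPARg (purple diamonds), as log2(signal + 16) with arrays centred on the median, 1 array per group. Dotted lines mark 2-fold. S100a8, S100a9 and S100a14 lie beyond the dotted lines on opposite sides (S100a8 at -2.24 and 3.15), and the WT value of S100a14 rests on a signal within the background range.

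The genotype comparisons use the same 4 arrays, so they are not independent of the RU486 comparisons. Under placebo, 5 of 9 genes were at least 2-fold lower in PAX8PPARg (S100a4, S100a6, S100a8, S100a9 and S100a14), where 5.49% of all genes were, and 0 were higher, where 4.34% were. The median of the 9 genes was -1.09, against -0.15 over all genes. Without centring or with quantile normalization, S100a6 differed by -0.90 and was no longer counted. Without centring, the split of all genes was 744 higher and 482 lower in place of 538 and 680. Under RU486, 3 genes were higher in PAX8PPARg (S100a8, S100a9 and S100a14), where 10.9% of all genes were, and 2 were lower (S100a4 and S100b), where 10.2% were. The RU486 difference in PAX8PPARg exceeded that in WT by at least 2-fold for 4 genes, where 15.6% of all genes did so: S100a14 (at least 8.19 log2), S100a9 (5.44), S100a8 (5.38) and S100a6 (1.49, and 0.77 with quantile normalization). It was at least 2-fold below that in WT for S100b (-2.05, or -1.59 with the signal within the background range raised to the highest bacterial control), where 12.2% of all genes were. None of these differences between genotypes was tested. S100a4 lay just inside the line (-0.94, and -1.07 without centring or with quantile normalization).

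Some genes of the same family that were not on the list moved in the directions of S100a8, S100a9 and S100a14. S100a3, a hair follicle S100 gene, read 85.9 on WT placebo, 9.7 on WT RU486, 9.5 on PAX8PPARg placebo and 82.8 on PAX8PPARg RU486, high on the same arrays as S100a8. S100a16 read 1177.6, 976.1, 941.6 and 1410.9 and stayed within 2-fold in all 4 comparisons. Of 8 measured genes among the other S100 genes and the S100-fused genes, whose large proteins of the cornified layer and hair begin with an S100 domain, 5 were at least 2-fold lower and 1 higher with RU486 in WT, and 6 were higher and 0 lower in PAX8PPARg. These counts take signals as deposited. With signals within the background range raised to the highest bacterial control, Flg (-0.71) and S100a5 (0.77) were within 2-fold in WT. In PAX8PPARg, Hrnr was within the background range on both arrays (2.4 and 21.9) and S100a5 on the RU486 array (34.3). The largest differences were those of the fused genes Tchh (-3.65 in WT and 5.06 in PAX8PPARg) and Rptn (-2.34 in WT, with a signal within the background range on WT RU486 raised to the highest bacterial control, and 4.66 in PAX8PPARg). Along chromosome 3, neighbouring S100 genes did not all share a direction in WT: S100a3, S100a4, S100a5 and S100a6, in that order among the measured S100 genes, differed with RU486 by -1.56, 1.82, 0.77 and 0.45. The values of S100a3 and S100a5 take a signal within the background range (9.7 on WT RU486 and 1.1 on WT placebo) at the highest bacterial control, and were -1.99 and 1.35 with the signals as deposited. S100a1 and S100a13, whose annotated starts overlap on opposite strands, differed by -0.89 and 0.21 in WT, and by -0.28 and -0.44 in PAX8PPARg. In PAX8PPARg, S100a3, S100a4 and S100a6 were higher with RU486 (2.09, 0.89 and 1.94). S100a5 read 8.6 on placebo and 34.3 on RU486, the latter within the background range of its array, so its direction there is not settled.

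The genes most like each widely varying S100 gene were searched among 6197 genes at or above the median level, by the root mean square difference of log2 values after each gene was centred on its own mean over the 4 arrays. With 4 points, many genes can look alike. S100a8 was closest to Anxa8, an annexin gene of stratified epithelium (0.28), to S100a9 (0.29) and to the desmosomal plaque gene Pkp1 (0.36). S100a9 was closest to the macrophage elastase gene Mmp12 (0.16), to S100a8 (0.29) and to Anxa8 (0.31). S100a14 was closest to Asprv1, a protease gene of the cornified layer (0.67), Krtdap, a keratinocyte differentiation gene (0.72), and Wif1, a Wnt inhibitor gene (0.77). These distances rest on its WT RU486 signal within the background range. With such signals raised to the highest bacterial control, its nearest genes were Wif1 (0.36), the basal keratin gene Krt14 (0.38) and Krtdap (0.44). S100a4 was closest to Fcgr2b, an inhibitory Fc receptor gene of B cells and myeloid cells (0.046), to Ms4a6d (0.15) and to Nt5dc2 (0.15). S100b was closest to the chemokine gene Ccl9 (0.11), the complement receptor gene C3ar1 (0.11) and the lysosomal protease gene Lgmn (0.11), and with raised signals to the chemokine gene Ccl6 (0.083), Pilra (0.099) and Ccl9 (0.10).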

How the data were processed

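The deposited values were probe set signals, an intensity on a linear scale, which the authors had scaled to a common trimmed mean, as the values show (2% trimmed from each end). They came from software not given in the sources used here, and no detection calls were used. Of 22690 probe sets, 64 were controls, and 20380 of the other 22626 had 1 gene symbol (691 had several and 1555 none). Symbols came from the platform annotation, updated through gene IDs to RefSeq. For a gene with several probe sets, the one with the highest mean signal was used. Signals became log2(signal + 16), less the median of all non-control probe sets on that array. No filter on low values was used, and 8 of the 9 measured S100 genes lay at or above the median level of all genes, with S100b below. The steps were run on a simulated array, a copy of WT placebo with noise added and a set of bright genes raised. It lacked the differences in background and spike-in signal between the real arrays, so it says nothing about their effect. Named genes of other lists were the 3 largest differences of a list and known partners of a member, except where said. The S100 genes and the gene lists were chosen with earlier results of these data known. No test was made, because each group has 1 array. Python 3.11.15, numpy 2.4.6, pandas 2.3.3 and matplotlib 3.10.9 were used. The alternatives were pseudocounts of 1 and 64, no centring, quantile normalization, averaged probe sets, a filter at the median level, and signals raised to the highest of 27 bacterial controls.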

Additional observations from a re-analysis of the deposited data

Results flagged for a closer look

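S100a8, S100a9 and S100a14 are listed here because their RU486 differences had opposite signs in the genotypes and were at least 2-fold in each, a difference that was not tested. S100a8 differed by -2.24 log2 in WT and 3.15 in PAX8PPARg. S100a9 differed by -2.68 and 2.76. S100a14 differed by -6.37 and 2.78, and the first of these rests on a WT RU486 signal within the background range.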

How the results depend on the processing

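No paired analysis was possible because each group has 1 array, and no array could be left out for the same reason. The alternative settings gave 310 differences of single S100 genes, of which 292 moved by no more than 1.5-fold, 18 moved by more, and 0 that were at least 2-fold changed sign. The 292 include 40 from the filter at the median level, which leaves the values as they were, so these could not move. Averaging could alter only the 3 genes with 2 probe sets, and raised signals only S100a14 and S100b. Of 70 counts of S100 genes, 65 stayed within 1.5 times their value. With genes at or above the median level only, which leaves S100b out, the count was 1 for higher with RU486 in WT, 1 for lower in PAX8PPARg under RU486, and 0 for a lower RU486 difference in PAX8PPARg than in WT. The last count was 2, with S100a4 and S100b, without centring and with quantile normalization. S100a14 in WT ranged from -9.02 with a pseudocount of 1 to -4.53 with 64. Quantile normalization turned the sign of some differences under 2-fold. Between genotypes under RU486, these were S100a10 (from 0.17 to -0.29) and S100a6 (from 0.40 to -0.13). With RU486 in PAX8PPARg it was S100b (from 0.16 to -0.24). For the difference of the RU486 differences it was S100a10 (from 0.66 to -0.11). The cause was not tested. Without centring, the median over all genes with RU486 in PAX8PPARg was 0.00 in place of 0.13, and that of PAX8PPARg minus WT under placebo was 0.04 in place of -0.15. Counts over all genes moved by more than 1.5 times with a pseudocount of 1 (1809 higher and 1725 lower with RU486 in WT, 2255 higher in PAX8PPARg, 1120 and 1348 between genotypes under placebo, 2128 higher under RU486), with a pseudocount of 64 (489 and 707, 504 and 526, 291 and 382, 728 and 811 in the same order, and 1121 and 997 for the difference of RU486 differences), and with signals raised to the highest bacterial control, which differs between arrays (2738 higher with RU486 in PAX8PPARg). With the 6197 genes at or above the median level, they were 341 and 512, 317 and 319, 117 and 274, 448 and 636, and 723 and 622. The values as reported were 925 and 1100, 1316 and 877, 538 and 680, 1348 and 1259, and 1934 and 1512. Signals at the background level limit S100a14 and S100b, and the number of arrays limits every value.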
